A study of Homo sapiens with 8 samples.

Results

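The transcripts of 10 genes that drive the cell division cycle were followed in the pancreatic cancer lines MIA PaCa-2 and Capan-1, with and without siRNA against HOXB7. They are the D-type cyclins CCND1, CCND2 and CCND3 with their kinases CDK4 and CDK6, the E-type cyclins CCNE1 and CCNE2, the A-type cyclin CCNA2, and the B-type cyclins CCNB1 and CCNB2. A probe belonged to the set when its gene name in the deposited array annotation was one of these symbols, which gave 12 probes for 10 genes out of 34127 probes for 27363 genes. CCNB1 and CCNE2 had 2 probes each and every other gene had 1. Each of the 8 arrays read the RNA of a single sample on a single-color Agilent human array, with 2 arrays per group. The siRNA groups were MIA PaCa-2 or Capan-1 cells transfected with a HOXB7-specific siRNA at 10 nM and taken after 48 h, and the parental groups were the same lines without siRNA. MIA PaCa-2, taken from a primary tumor, was grown in RPMI medium with 10% fetal bovine serum, and Capan-1, from a hepatic metastasis, in IMDM with 20% fetal bovine serum. HOXB7 is a homeobox transcription factor, and the study asked what its loss does to proliferation and survival of these cells. The parental arrays are not arrays of cells given a non-targeting siRNA, so an effect of transfection cannot be told apart from one of HOXB7.

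D-type cyclins bind CDK4 and CDK6 in early G1, and the complexes begin to phosphorylate the retinoblastoma protein, which releases E2F transcription factors. E2F activates the E-type cyclins, which pair with CDK2 to complete the passage into S phase, and cyclin A follows during S phase and G2. Cyclins B1 and B2 accumulate later, pair with CDK1 and drive mitosis, after which they are degraded. The mRNA of the E, A and B cyclins is itself periodic, whereas that of CDK4 and CDK6 varies little through the cycle. In pancreatic ductal adenocarcinoma the pathway is commonly altered through loss of the CDK4/6 inhibitor p16. RNA was pooled over all cells of a culture, so fewer cells in a phase and less RNA per cell cannot be told apart.

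The probes of CDK6, CCND1, CCNE1 and CCNB1 are shown because differences of these genes, between the lines or with siRNA, are described below. Their sequences are written 5′ to 3′ from the array annotation, whose coordinates are in hg18, and only the first 30 of 60 bases are given except for the brighter CCNB1 probe. CDK6 was read at chr7:92072379-92072438 on the minus strand, CCND1 at chr11:69177414-69177473 on the plus strand and CCNE1 at chr19:35006946-35007005 on the plus strand. The brighter CCNB1 probe matched chr5:68507119-68508879 on the plus strand, a stretch of 1761 bases for a probe of 60, so its target crosses a splice junction. The dimmer CCNB1 probe lay further 3′, at chr5:68509628-68509687.
CDK6: ttggtgttgaaatatcactgtccaatgtgt
CCND1: gctctattccaaaaaggttgctgtttcaca
CCNE1: gggctgccctctccacattatcagttgaca
CCNB1, brighter probe: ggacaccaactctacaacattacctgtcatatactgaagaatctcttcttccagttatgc
CCNB1, dimmer probe: gaatccctagtccccctgttttctgtttct

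Promoter windows of RefSeq (GRCh38.p14, 250 bases before to 50 bases after a start site) were at hand for 7 of the 10 genes, in 10 windows. Those of the A and B cyclins and of CCNE1 are shown because the mRNA of these genes is periodic in the cycle, and CCNE1 was also the gene called with siRNA. Capitals mark the CCAAT box (CCAAT, either strand) and the CHR element (TTTGAA, either strand) in the A and B cyclins, and the GC box (GGGCGG, either strand) in CCNE1. The windows are chr4:121823834-121824133 on the minus strand for CCNA2, chr5:69166900-69167199 on the plus strand for CCNB1, chr15:59104896-59105195 on the plus strand for CCNB2, and chr19:29811741-29812040 on the plus strand for CCNE1.
CCNA2: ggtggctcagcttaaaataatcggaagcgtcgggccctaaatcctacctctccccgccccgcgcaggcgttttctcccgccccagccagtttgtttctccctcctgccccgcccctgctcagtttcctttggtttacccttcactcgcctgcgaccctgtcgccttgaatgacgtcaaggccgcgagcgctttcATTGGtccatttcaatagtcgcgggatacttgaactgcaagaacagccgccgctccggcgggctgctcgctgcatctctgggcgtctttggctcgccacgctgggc
CCNB1: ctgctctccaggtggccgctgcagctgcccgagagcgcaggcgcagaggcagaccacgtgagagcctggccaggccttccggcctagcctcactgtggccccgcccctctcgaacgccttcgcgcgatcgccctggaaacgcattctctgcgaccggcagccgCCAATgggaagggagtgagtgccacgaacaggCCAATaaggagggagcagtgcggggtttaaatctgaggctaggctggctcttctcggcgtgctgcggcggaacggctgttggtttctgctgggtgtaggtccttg
CCNB2: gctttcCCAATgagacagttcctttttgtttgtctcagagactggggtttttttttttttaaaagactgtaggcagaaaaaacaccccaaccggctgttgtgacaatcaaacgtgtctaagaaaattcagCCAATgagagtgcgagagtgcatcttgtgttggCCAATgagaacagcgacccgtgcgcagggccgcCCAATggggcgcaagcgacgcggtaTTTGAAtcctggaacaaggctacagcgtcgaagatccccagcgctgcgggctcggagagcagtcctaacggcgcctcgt
CCNE1: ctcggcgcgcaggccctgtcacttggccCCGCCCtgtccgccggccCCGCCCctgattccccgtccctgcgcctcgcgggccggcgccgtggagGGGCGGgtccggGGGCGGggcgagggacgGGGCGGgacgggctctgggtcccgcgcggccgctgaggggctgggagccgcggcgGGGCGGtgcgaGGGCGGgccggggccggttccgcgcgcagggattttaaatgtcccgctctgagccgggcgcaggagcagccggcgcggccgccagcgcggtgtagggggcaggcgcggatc

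CCNB2 held 4 CCAAT boxes, CCNB1 held 2 and CCNA2 held 1, and the 3 genes each had one beginning 54 to 56 bases before the start site. In CCNB2 and CCNB1 the next began 87 bases before it. Of the 3 windows of CCND3, 2 also held 1 CCAAT box, 64 and 136 bases before the start. A CHR element of this spelling was found in CCNB2 only among the 10 windows, 29 bases before the start. Other spellings of the element were not searched, so its absence from CCNA2 and CCNB1 is not shown. At least 1 CCAAT box was present in 34.6% of all 35116 promoter windows, and TTTGAA in 15.2%. CCNE1 held 7 GC boxes, which occur at least once in 45% of all windows, and no CCAAT box. CCNA2 and CDK4 held 3 GC boxes each, 1 window of CDK6 held 3, and CCNB1 and CCNB2 held 1 each. Of the CCND3 windows, 2 held GC boxes, 4 and 5 of them. CDK4 and CDK6 also had no CCAAT box. GC boxes of the A and B cyclins are not in capitals. None of the 10 windows held the E2F-type octamers TTTCGCGC, TTTGGCGC or TTTCCCGC on either strand, which 2.74% of all windows hold. One GC box of CCNB2, left unmarked, overlaps its CCAAT box nearest the start.

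Replicate arrays correlated at Pearson's r of 0.995 to 0.997 across probes, and 67.5% to 73.0% of probes were well above background on an array. Values below are levels on the log2 scale, the intensity of a probe relative to the 75th percentile of the gene probes on its array, and a difference of 1 is a doubling. HOXB7 was at -7.76 and -7.78 on the MIA PaCa-2 siRNA arrays, not well above background, against -4.82 and -4.09 in parental cells, and so was at least 2.85-fold lower (limma, adjusted p = 0.0173). In Capan-1 it was at -5.26 and -4.80 with siRNA against -2.48 and -2.34, which is 6.13-fold, with an adjusted p of 0.121. All MIA PaCa-2 arrays were on 1 slide and all Capan-1 arrays on another. In each slide the siRNA arrays took positions 1 and 2. Line thus cannot be told apart from slide, medium or serum (10% against 20%), nor treatment from position. The methods name RPMI medium for plating before transfection, so siRNA in Capan-1 may also go with a change of medium. Of 6 epithelial markers all were well above background in parental Capan-1 and 4 in parental MIA PaCa-2, where EPCAM and CDH1 were not. Of markers of other cells, all 5 for leukocytes, 2 of 4 for endothelium and 3 of 6 for fibroblasts were well above background in parental MIA PaCa-2, and 5, 2 and 1 in parental Capan-1, while the fibroblast markers LUM and PDGFRB were not on any array. The summed level of the leukocyte markers was 2.29 and 0.68 in the parental lines and 2.27 and 0.77 with siRNA. In MIA PaCa-2 with siRNA, CD68, a lysosomal protein of macrophages, rose by 0.70 on the log2 scale (limma, adjusted p = 0.0438), and the other 4 leukocyte markers did not pass, with values from -0.34 for CD14 to 1.31 for CD3E. The part of other cells in the results was not tested. Nothing in the labels says that the 2 arrays of a group came from separate cultures, so p-values measure only the spread between them. With 2 arrays against 2 an exact two-sided permutation test cannot go below 0.333, and the tests below borrow the spread across probes.

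**Figure D1:**
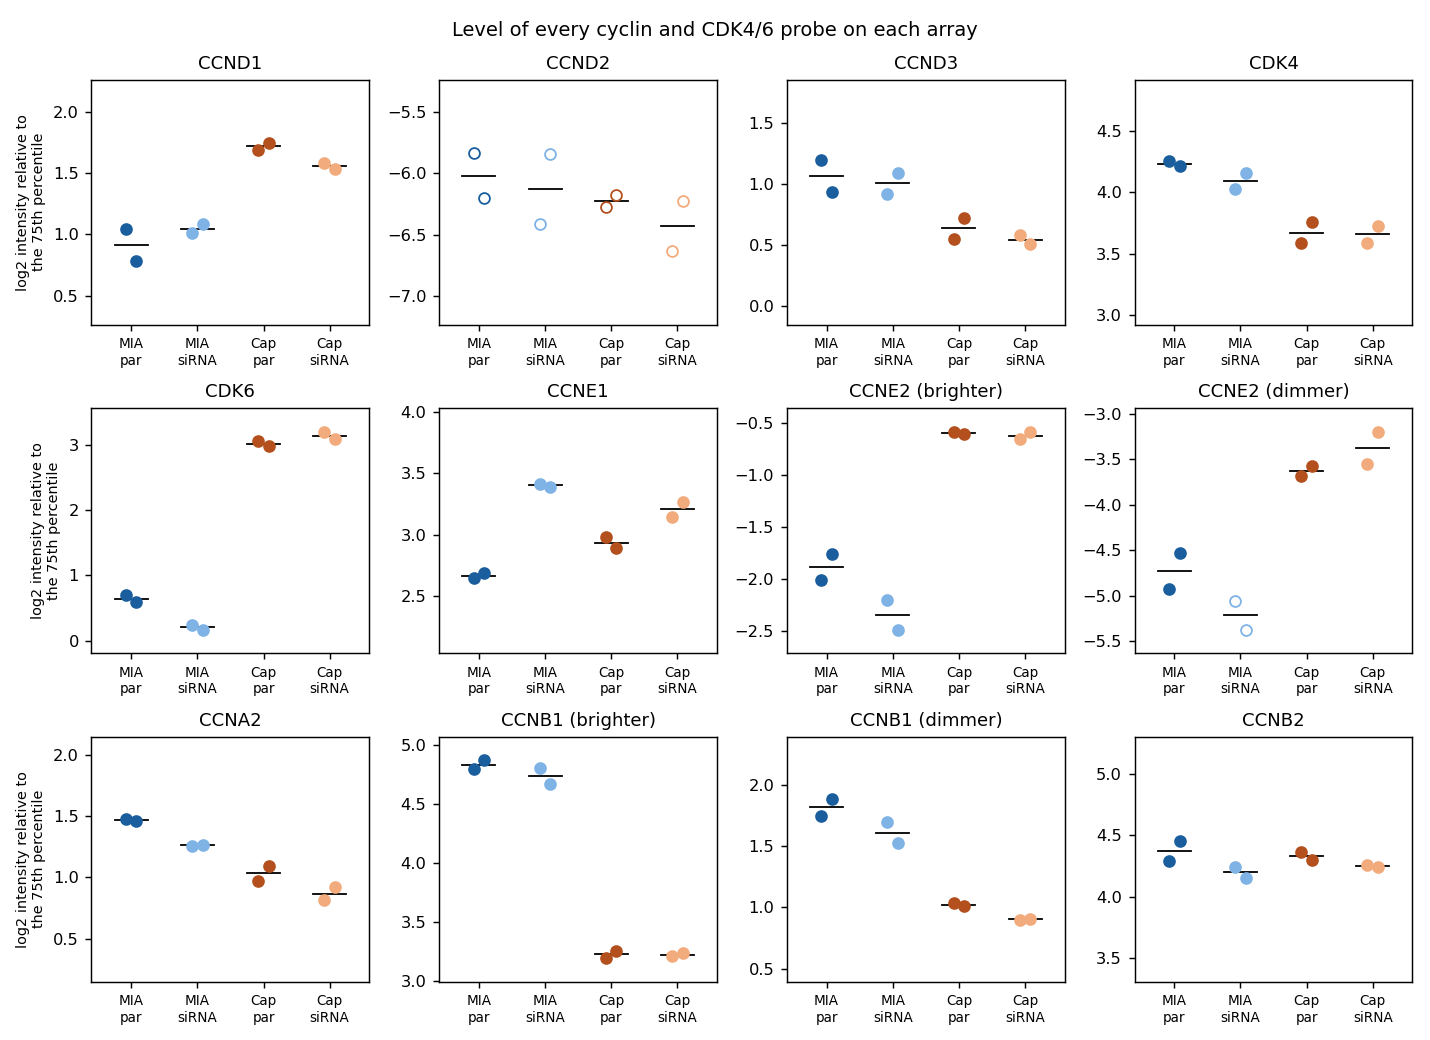
Level of each of the 12 probes on every array (y axis, log2 intensity relative to the array's 75th percentile; each panel has its own range) in parental (par) and siRNA groups of MIA PaCa-2 (MIA, blue) and Capan-1 (Cap, orange); lines are group means, and points are open where fewer than 2 arrays of the group were well above background. All genes but CCND2, CCNE1 and CCNB2 separate the lines whatever the treatment. CCNE1 lies higher on both MIA PaCa-2 siRNA arrays (3.42 and 3.39) than on both parental arrays (2.65 and 2.69).

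Of the 10 genes, 9 were measured well above background, and CCND2 was not. The CCND2 probe lay between -6.64 and -5.84 on the 8 arrays and was well above background on 1 of them, a parental MIA PaCa-2 array, so it was not tested. CCND1 and CCND3, the other D-type cyclins, and both kinases were well above background on all 8 arrays. So were CCNE1, CCNA2, CCNB1 and CCNB2, while the dimmer CCNE2 probe missed that mark on 1 MIA PaCa-2 siRNA array. Levels of different probes are not compared, since each binds with its own strength.

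Parental MIA PaCa-2 and parental Capan-1 carried different cyclin and kinase transcripts. In MIA PaCa-2, CCNB1, CDK4, CCNA2 and CCND3 were higher, and CDK6, CCNE2, CCND1 and CCNE1 were lower, leaving CCNB2 as the gene with no call among the 9 tested. These are 4 genes higher and 4 lower. Over all 20173 genes tested, 40.1% were higher and 31.7% lower at a limma adjusted p under 0.05, so a call in this comparison was the usual outcome. The arrays of both lines did not overlap for 10 of the 11 probes (90.9%), against 86.4% of all probes tested. MIA PaCa-2 was the higher line for 5 of them (47.5% of all probes) and the lower for 5 (38.9%).

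CDK6, the partner of D-type cyclins, showed the largest difference of the 11 probes. Its level was 0.69 and 0.60 on the parental MIA PaCa-2 arrays and 3.05 and 2.97 on the parental Capan-1 arrays. Both Capan-1 arrays were far above both MIA PaCa-2 arrays. The difference was -2.37 ± 0.09 (SE) on the log2 scale, or 5.17-fold (95% interval 4.43 to 6.02), with an adjusted p of 4.06e-06. Of all probes tested, 13.8% differed by more in either direction. CDK4, the other kinase of these complexes, differed the other way, with 4.25 and 4.21 in MIA PaCa-2 and 3.58 and 3.75 in Capan-1. It was 1.48-fold higher in MIA PaCa-2 (log2 0.56 ± 0.10, adjusted p = 0.00349).

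The D-type cyclins also split. CCND1, the cyclin most often amplified in carcinomas, was at 1.05 and 0.78 in parental MIA PaCa-2 and at 1.69 and 1.75 in parental Capan-1. It was 1.75-fold lower in MIA PaCa-2 (log2 -0.80 ± 0.11, adjusted p = 0.000922), and it kept that call under all 19 alternative settings, with log2 differences from -0.95 to -0.67. CCND3 was at 1.19 and 0.93 in MIA PaCa-2 and at 0.55 and 0.72 in Capan-1, without overlap. That is 1.34-fold higher (log2 0.43 ± 0.13, adjusted p = 0.0245). The CCND3 call was lost without MIA PaCa-2 parental replicate 1 (0.29, adjusted p = 0.104) and without Capan-1 parental replicate 1 (0.34, adjusted p = 0.129).

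Both E-type cyclins were lower in MIA PaCa-2. The brighter CCNE2 probe was at -2.02 and -1.76 there and at -0.59 and -0.61 in Capan-1. The dimmer probe, at -4.93 and -4.54 against -3.69 and -3.57, gave the same direction. The differences were 2.45-fold (log2 -1.29 ± 0.13, adjusted p = 0.000258) and 2.15-fold (log2 -1.10 ± 0.20, adjusted p = 0.0029). CCNE1 was at 2.65 and 2.69 in MIA PaCa-2 and at 2.98 and 2.89 in Capan-1, a narrow gap with no overlap. It amounted to 1.20-fold (log2 -0.27 ± 0.09, adjusted p = 0.0309). This call was lost when any of the 4 parental arrays was left out, with adjusted p from 0.0645 without Capan-1 parental replicate 2 to 0.157 without Capan-1 parental replicate 1, and without MIA PaCa-2 siRNA replicate 2 (0.0502).

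Of the mitotic cyclins, CCNB1 was called higher in MIA PaCa-2 and CCNB2 was not called. CCNB1 was at 4.80 and 4.87 on its brighter probe in parental MIA PaCa-2 and at 3.19 and 3.26 in parental Capan-1. On the dimmer probe the levels were 1.75 and 1.89 against 1.04 and 1.01. Both probes placed MIA PaCa-2 above Capan-1, but by unequal amounts. The junction-crossing probe gave 3.05-fold (95% interval 2.64 to 3.54, adjusted p = 1.6e-05) and the 3′ probe 1.73-fold (1.47 to 2.04, adjusted p = 0.000552), and these intervals do not overlap. CCNB2, whose product also pairs with CDK1, was at 4.29 and 4.46 in MIA PaCa-2 and at 4.36 and 4.30 in Capan-1, where the arrays of the lines overlapped. Its log2 difference was 0.042 ± 0.09 (adjusted p = 0.701), and the 95% interval of -0.18 to 0.27 leaves room for a difference of up to 1.20-fold. CCNA2, the S phase and G2 cyclin, was at 1.48 and 1.46 against 0.97 and 1.10, or 1.35-fold higher in MIA PaCa-2 (log2 0.44 ± 0.09, adjusted p = 0.00463).

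**Figure D2:**
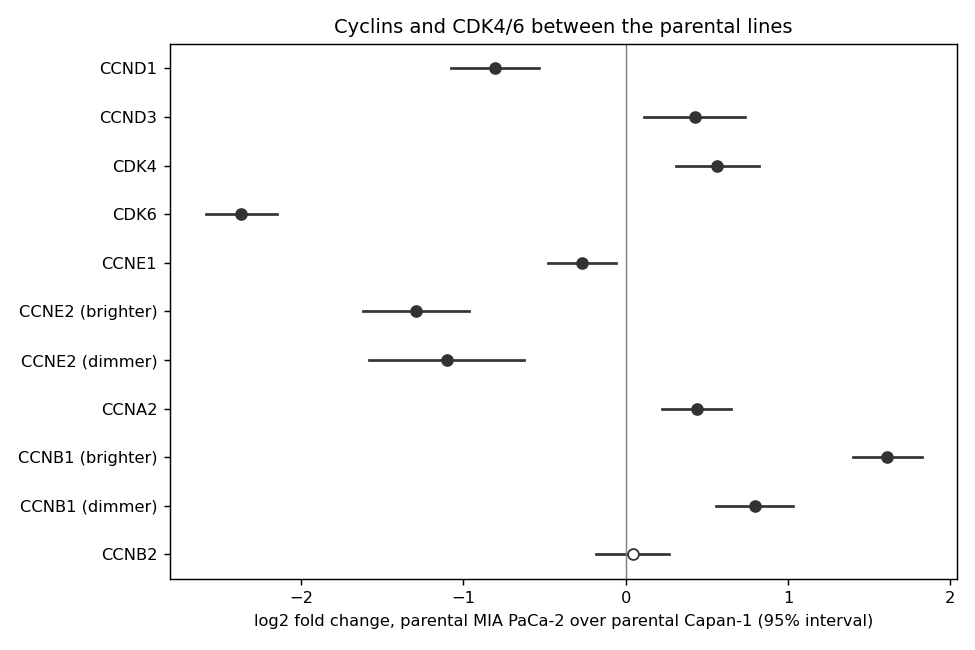
Log2 fold change of parental MIA PaCa-2 over parental Capan-1 (x axis) for the 11 tested probes; bars are 95% intervals of the limma fit, and filled points have an adjusted p under 0.05. Values run from -2.37 for CDK6 to 1.61 for the brighter CCNB1 probe, and CCNB2 (0.042) is the open point.

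With HOXB7 siRNA in MIA PaCa-2, CCNE1 was the gene called among the 9 tested, and it rose. None of them was called lower by limma. Over all 19221 genes tested 2.29% were called, 1.17% higher and 1.12% lower. The 225 higher and 215 lower genes became 14 and 33 without scaling between arrays, and 21 and 49 with spike-in scaling. Of all 23715 probes tested, 2522 had an unadjusted p under 0.05 upward and 2340 downward. Among the 11 probes, 4, for 3 genes, would be counted at that threshold. They are CCNE1, CDK6 and both CCNE2 probes. The siRNA and parental arrays did not overlap for 8 of the 11 probes (72.7%), against 51.2% of all probes tested. Of these, 1 was higher, against 28% of all probes, and 7 were lower, against 23.3%. The median log2 fold change was -0.17 over the 11 probes and 0.02 over all 23715 probes tested.

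CCNE1, the cyclin that activates CDK2 before S phase, was at 3.42 and 3.39 on the siRNA arrays of MIA PaCa-2 and at 2.65 and 2.69 without siRNA. Both siRNA arrays were above every other array of the series for this probe. The rise was 1.67-fold (95% interval 1.44 to 1.93), or 0.74 ± 0.09 (SE) on the log2 scale, with an adjusted p of 0.0289. Larger changes in either direction were seen for 4.06% of all probes tested. The log2 fold change stayed between 0.52 and 0.75 under 19 alternative settings, but its adjusted p was under 0.05 in 7 of them. Of these 7, 1 used the deposited table, which holds the same values and could only repeat the result. Leaving out MIA PaCa-2 siRNA replicate 2 kept the call (0.0459). Leaving out any other array ended it, with adjusted p from 0.0737 without MIA PaCa-2 parental replicate 2 to 0.0975 without Capan-1 parental replicate 1. Its paralog CCNE2 had values in the other direction, at -2.21 and -2.49 with siRNA against -2.02 and -1.76 on the brighter probe. That log2 difference of -0.46 ± 0.13 had an adjusted p of 0.136. The dimmer probe gave -0.48 ± 0.20 (adjusted p = 0.241), from -5.06 and -5.37 against -4.93 and -4.54.

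CDK6 was at 0.25 and 0.17 with siRNA and at 0.69 and 0.60 in parental MIA PaCa-2, again without overlap. Its log2 fold change of -0.44 ± 0.09 (95% interval -0.66 to -0.22) had an adjusted p of 0.0721. It passed the threshold in 2 of 19 alternatives, with an adjusted p of 0.0423 when a signal was required on each of the 8 arrays and of 0.0222 when the spread was allowed to follow intensity. CDK4 was at 4.02 and 4.16 against 4.25 and 4.21, a difference of -0.14 (95% interval -0.40 to 0.11). CCND1 was at 1.01 and 1.08 against 1.05 and 0.78, where the groups overlapped, with a difference of 0.13 and an interval of -0.13 to 0.40. CCND3, at 0.92 and 1.09 against 1.19 and 0.93, also overlapped, at -0.057 (interval -0.37 to 0.25). The CCND1 interval thus runs from 0.911-fold to 1.32-fold, at the precision that 2 arrays a group give.

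The A and B cyclins all lay slightly lower with siRNA in MIA PaCa-2, and none passed the test. CCNA2 was at 1.26 and 1.27 against 1.48 and 1.46, so that both siRNA arrays were below both parental arrays by a margin larger than the gap within either pair. The difference was -0.21 ± 0.09 (adjusted p = 0.251). CCNB2 was at 4.24 and 4.16 against 4.29 and 4.46, a difference of -0.17 (adjusted p = 0.348). For CCNB1 the brighter probe was at 4.81 and 4.67 against 4.80 and 4.87 and overlapped. Its difference was -0.09, and that of the dimmer probe, at 1.69 and 1.53 against 1.75 and 1.89, was -0.21, with adjusted p of 0.598 and 0.294.

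**Figure D3:**
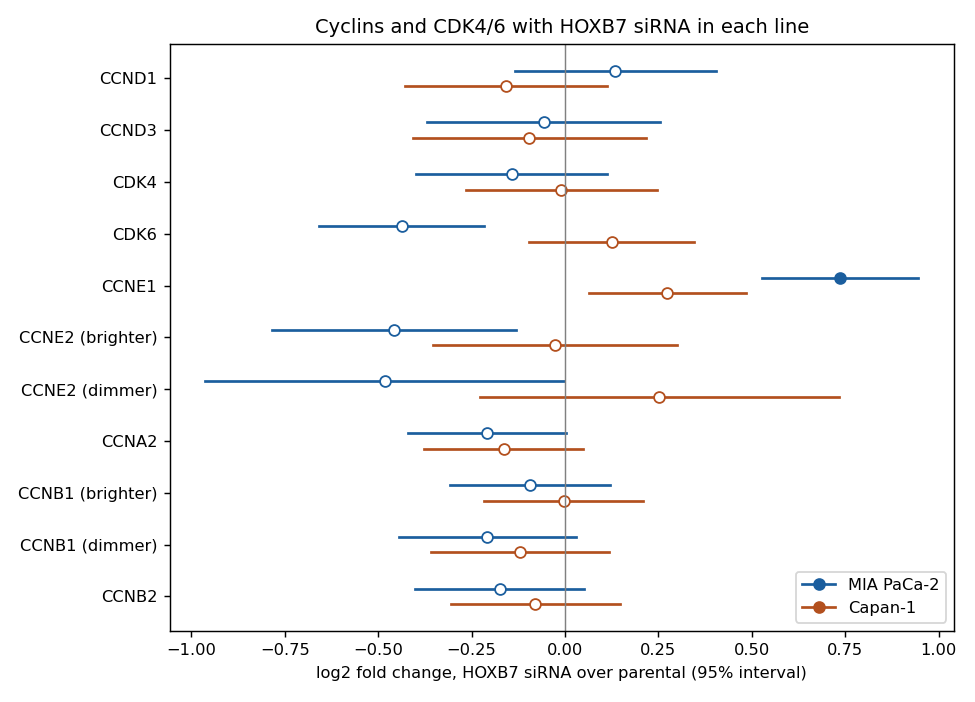
Log2 fold change of HOXB7 siRNA over parental (x axis) for the 11 tested probes in MIA PaCa-2 (blue) and Capan-1 (orange); bars are 95% intervals of the limma fit, and filled points have an adjusted p under 0.05. CCNE1 in MIA PaCa-2 (0.74) is the filled point, and CDK6, CCND1 and the dimmer CCNE2 probe have estimates of opposite sign in the lines, except that CCND1 in MIA PaCa-2 is below 0 without scaling, that CDK6 in Capan-1 is below 0 without scaling or with spike-in scaling, and that the CCNE2 probe in MIA PaCa-2 is above 0 with normexp background correction.

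In Capan-1 no cyclin or kinase of the set was called in either direction by limma. Of 18938 genes tested, 0.00528% were called higher, which is 1 gene, and 0 lower, although 1367 and 1543 of 23376 probes had an unadjusted p under 0.05 upward and downward. Among the 11 probes CCNE1 had one (unadjusted p = 0.0187). The groups did not overlap for 7 probes (63.6%), against 54.2% of all probes. They were 3 higher and 4 lower, where 27.1% of all probes were higher and 27.1% lower. CCNE1 was at 3.15 and 3.27 with siRNA and at 2.98 and 2.89 without. Both treated arrays were thus above both parental arrays, as in MIA PaCa-2, with a log2 fold change of 0.27 ± 0.09 (95% interval 0.06 to 0.48, adjusted p = 0.333). CDK6 was at 3.20 and 3.08 against 3.05 and 2.97, a difference of 0.13 (interval -0.10 to 0.35). CCND1, at 1.58 and 1.53 against 1.69 and 1.75, had -0.16 (interval -0.43 to 0.11).

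The remaining genes lay close to 0 in Capan-1. CDK4 (-0.01), CCND3 (-0.10), CCNB2 (-0.08), CCNA2 (-0.16) and the CCNB1 probes (-0.0031 and -0.12) had adjusted p from 0.481 to 0.994. CCNA2 was at 0.82 and 0.92 against 0.97 and 1.10, and both treated arrays were the lower ones. The CCNE2 probes disagreed in sign, with -0.026 on the brighter and 0.25 on the dimmer, and intervals of -0.35 to 0.30 and -0.23 to 0.73.

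The difference between the lines in the siRNA effect was tested for each probe and passed for none of the 9 genes, while 0.0097% of the 20628 genes tested passed, 0.00485% in each direction. Of all 25552 probes tested, 1582 had an unadjusted p under 0.05 upward and 1246 downward. Among the probes of the set, 3 would be counted at that threshold. CDK6 had siRNA arrays below parental arrays in MIA PaCa-2 and above them in Capan-1, where the sign turned without scaling (-0.032) and with spike-in scaling (-0.12). The effects differed by -0.56 ± 0.13 (95% interval -0.87 to -0.25, adjusted p = 0.231). For CCNE1 the effect was larger in MIA PaCa-2 by 0.46 ± 0.12 (interval 0.17 to 0.76, adjusted p = 0.285), and for the dimmer CCNE2 probe the difference was -0.74 ± 0.28 (adjusted p = 0.421). The rise of CCNE1 was therefore not shown to differ between the lines.

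**Figure D4:**
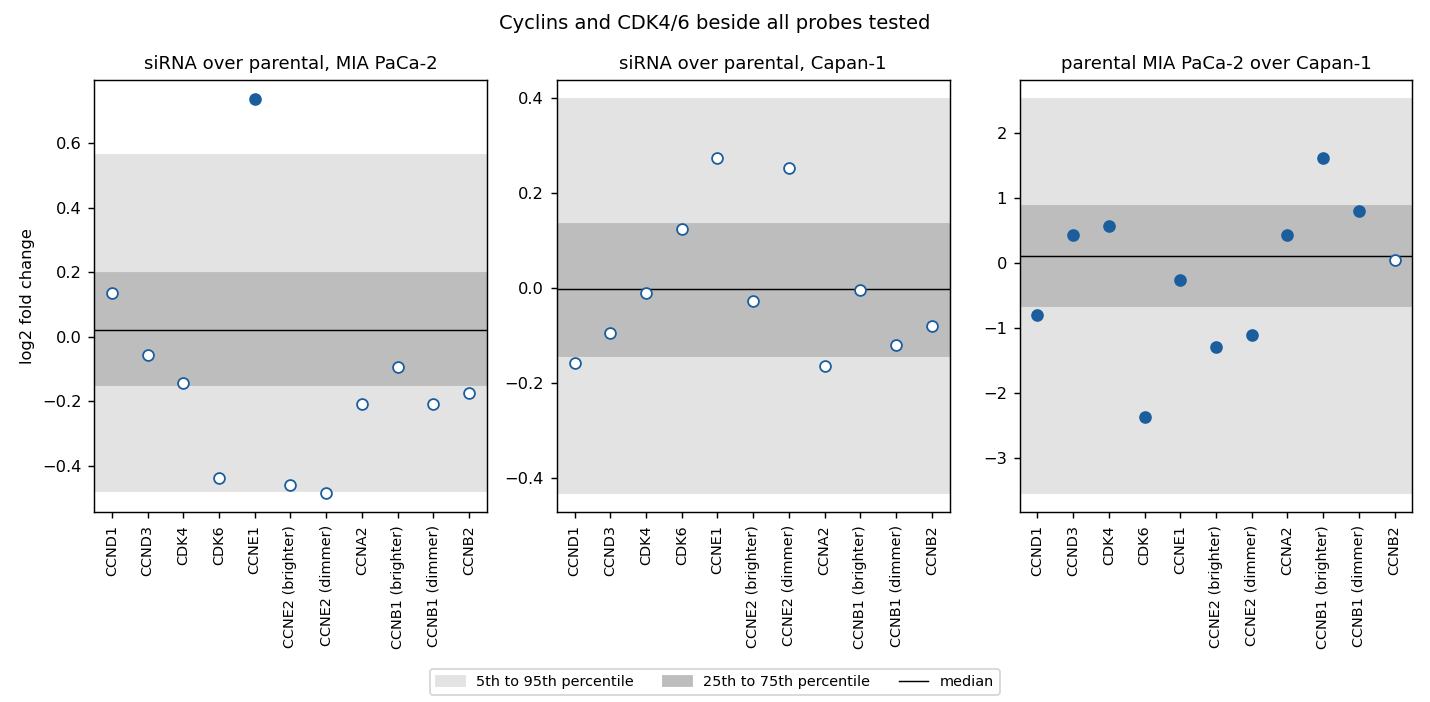
Log2 fold changes (y axis; each panel has its own range) of the 11 tested probes as points, filled at an adjusted p under 0.05, beside the median (line) and the 25th to 75th (dark band) and 5th to 95th (light band) percentiles of all probes tested. CCNE1 (0.74) and the dimmer CCNE2 probe (-0.48) lie outside the light band in MIA PaCa-2, all 11 lie inside it in Capan-1, and between the parental lines the bands are far wider.

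A second call rule was built after the study's methods, in which the ratio of the parental duplicates sets a 99% interval that depends on intensity. A gene had to have at least 2 probes, over 50% of them with signal, and every probe with signal beyond the interval on the same side. The study listed genes common to its duplicates, and here each probe had to lie beyond the interval in both. CCNB1 and CCNE2 were the genes with enough probes, and neither was called in MIA PaCa-2 or in Capan-1. Of all genes with enough probes 0.135% and 0.3% were called. When genes with 1 probe were admitted, 9 members could be read in each line. CCNE1 in MIA PaCa-2 was then called, with log2 ratios of 0.77 and 0.70 for the duplicates against a limit of 0.66, and it was the only one. In MIA PaCa-2 0.425% of all genes were called by this wider rule, and in Capan-1 1.58%, with 0 members.

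The other genes of the cyclin pathway were followed through 7 lists of 81 genes. Between the parental lines 58 of the 78 genes tested (74.4%) were called, close to the 73.1% of all genes. They were 43 higher in MIA PaCa-2 and 15 lower, where 40.1% of all genes were higher and 31.7% lower. The CDK inhibitors, which hold cyclin complexes inactive, were higher in MIA PaCa-2 in 5 of 6 tested and lower in 1. CDKN1A, encoding p21, was the lower one, at -3.84 and -4.87 in MIA PaCa-2 against -1.49 and -1.43 in Capan-1 (7.43-fold, adjusted p = 0.000334). CDKN2C, encoding the CDK4/6 inhibitor p18, was at 1.91 and 1.99 against 0.59 and 0.76 (2.42-fold higher, adjusted p = 9.13e-05). CDKN2A, encoding the CDK4/6 inhibitor p16, was also higher, at -1.06 and -1.16 against -2.46 and -2.44 (2.53-fold, adjusted p = 0.000205), although deletion of this gene is widely described for both lines and what its probe bound was not tested.

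Over all genes tested between the parental lines, 40.1% were higher in MIA PaCa-2 and 31.7% lower. Whether a list differs from these shares was not tested. Among activating phosphatases and inhibitory kinases, 3 of 6 were higher in MIA PaCa-2 and 1 lower. CDC25C, which activates cyclin B complexes at mitosis, was 4.22-fold higher (adjusted p = 5.46e-06), and CDC25A, which acts earlier at the entry into S phase, was 3.21-fold lower (adjusted p = 2.76e-05). Of 13 cyclin degradation genes tested, 9 were higher and 2 lower. SKP2, the ubiquitin ligase subunit that targets p27, was 3.56-fold higher (adjusted p = 1.37e-05). Other cyclins and CDKs had 10 of 13 higher and 1 lower, with CDK7, the CDK-activating kinase, at 2.52-fold (adjusted p = 2.94e-05). Pocket proteins and E2F had 4 of 13 higher and 6 lower, among them the repressor E2F7 at 2.78-fold lower (adjusted p = 1.8e-05) and the p130 gene RBL2 higher by 1.58 on the log2 scale (adjusted p = 2.42e-05). Transcriptional regulators of cyclins had 6 higher and 2 lower of 13, and proliferation markers 6 higher and 2 lower of 14.

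With siRNA, none of the list genes was called by limma, 0 of 79 tested in MIA PaCa-2 and 0 of 78 tested in Capan-1. At an unadjusted p under 0.05 there were 21 of 106 probes and 14 of 103. Over all probes tested there were 2522 upward and 2340 downward of 23715 in MIA PaCa-2. In Capan-1 there were 1367 and 1543 of 23376. The smallest adjusted p was 0.0527 for CDC25A in MIA PaCa-2 and 0.237 for MCM2, a subunit of the replicative helicase, in Capan-1. In Capan-1 all 14 proliferation markers had log2 fold changes below 0, with a median of -0.15 against 0.0016 over all genes. In MIA PaCa-2, 9 of 14 were below 0, with a median of -0.032. Pocket proteins and E2F in MIA PaCa-2 had 10 of 13 below 0 (median -0.10), and CDK inhibitors 4 of 6 (median -0.12).

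For each called gene, the probes with the most similar pattern over the 8 arrays were found among 20291 probes well above background on all of them. Likeness was the root mean square difference of log2 levels after each probe was centered on its own mean. Nearest to CDK6 were TRAK1 (0.085) and ARHGAP45 (0.089), and nearest to CCND1 were VSIR (0.042) and TRIO (0.051). CCNE1 was most like MANCR (0.076) and LOC100132593 (0.082), and CDK4 like PAFAH1B3 (0.036) and TRADD (0.037). CCNA2 was nearest to MTCH2 (0.033) and CEP295 (0.041), and CCND3 to SUMF2 (0.037) and GPS1 (0.043). The brighter CCNE2 probe was nearest to MYO6 (0.063), and the dimmer one to FZD6 (0.13) and ANXA5 (0.14). The brighter CCNB1 probe was most like LAS1L (0.043) and NDUFAF5 (0.044), and the dimmer one like PBK (0.043) and NOL8 (0.050). Neither the CCNB1 probes nor the CCNE2 probes shared a neighbor. Within the set the closest pair of genes was CDK4 and CCNA2 (0.080). The CCNB1 probes were 0.41 apart and the CCNE2 probes 0.13. Arrays of a line and of a group share their RNA source, so the 8 points behind each likeness are not independent.

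**Figure D5:**
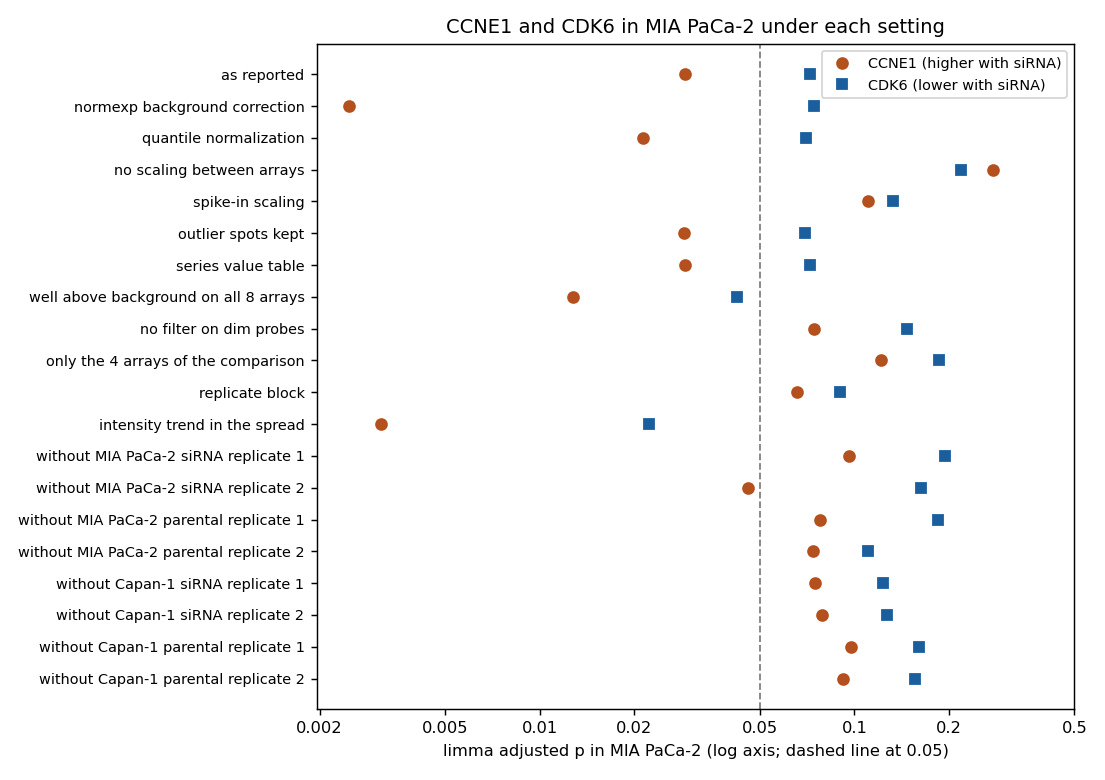
Limma adjusted p (x axis, log scale) for CCNE1 (circles) and CDK6 (squares) in siRNA against parental MIA PaCa-2 as reported and under 19 alternative settings (y axis); the dashed line marks 0.05. CCNE1 is left of the line as reported (0.0289) and under 7 alternatives, and CDK6 under 2.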

How the data were processed

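RNA of 4 groups of 2 arrays was hybridized to single-color Agilent human 4x44K arrays. The authors scanned them and extracted them with Agilent Feature Extraction 9.5.3, which subtracts background and detrends within an array, and deposited an intensity per spot, along with outlier flags and a call of signal against background. A second deposited table holds log2 values that equal these intensities, with no scaling between arrays.

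Log2 intensities of a probe's spots without outlier flag were averaged, and the array's 75th percentile over gene probes was subtracted. Group means were fitted to all 8 arrays with limma 3.58.1 in R 4.3.3 (lmFit, eBayes). Testing required a signal well above background on both arrays of a group in the comparison and was two-sided, with Benjamini-Hochberg adjustment over all probes tested, and called at an adjusted p under 0.05. A gene counted as higher or lower when at least 1 of its probes passed that way and no probe passed the opposite way. Accessions matched current symbols for 24824 of 34127 probes, and other probes kept the deposited name. The second rule used a 99% interval over windows of 1001 probes. Python 3.11.15, pandas 2.3.3 and matplotlib 3.10.9 made tables and figures. Scripts were tested on simulated data.

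Text names all members, HOXB7, list genes among the 5 with the smallest adjusted p per list, and the 2 most similar probes for each member called between the parental lines. The smallest adjusted p of the lists with siRNA (CDC25A, MCM2) and the markers EPCAM, CDH1, LUM, PDGFRB, CD68, CD14 and CD3E were added after their values were seen. For the brighter CCNE2 probe only 1 neighbor is given, the other having no gene name. Members and lists were chosen with earlier results of these data known. For arrays, the number of arrays limits the precision. Alternatives were another background correction (normexp), quantile normalization, no scaling, spike-in scaling, flagged spots kept, the deposited table, other filters, other fits and leaving out each array. The deposited table holds the same values, so that setting could only repeat the reported result, though it is counted among the alternatives.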

Additional observations from a re-analysis of the deposited data

How the results depend on the processing

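Over single probes, the log2 fold change kept its direction and its side of the threshold in 764 results of a probe under an alternative, lost its call in 28, gained one in 2 and changed sign in 27. The cause was not tested for any of these. CCNE1 in MIA PaCa-2 was above 0 throughout, and its call was lost without scaling (adjusted p = 0.276), with spike-in scaling (0.11), without a filter (0.0743) and when only the 4 arrays compared were fitted (0.121). CDK6 was the 1 member called lower under the filter on all 8 arrays and under the intensity trend, against 0 as reported. The members called higher in MIA PaCa-2 fell from 1 to 0 in those settings that ended the CCNE1 call. With an array left out, its log2 fold change ran from 0.72 to 0.75. The interval rule with at least 2 probes also gave 0, but CCNE1 has 1 probe and could not be called by it. When that rule admitted genes of 1 probe, CCNE1 was called. Between the parental lines, 4 members were called higher as reported, 2 without scaling (CCND3 and CCNA2 lost, adjusted p = 0.134 and 0.078) and 1 with spike-in scaling (CDK4, CCND3 and CCNA2 lost, 0.0684, 0.249 and 0.118). CCNE1 lost its call there without scaling (0.293), without a filter (0.0589) and with the 4 arrays alone (0.0662), and CCND3 also with the 4 arrays alone (0.0528).

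Counts over all genes moved widely with siRNA and for the difference between the lines. Between the parental lines they ranged from 12009 to 15104, against 14755 as reported. With siRNA in MIA PaCa-2, 441 genes were called, against 938 with normexp background correction, 47 without scaling, 70 with spike-in scaling, 943 under the filter on all 8 arrays, 10 without a filter, 0 with the 4 arrays alone, 1214 with the intensity trend, 5 under the interval rule and 77 when it admitted genes of 1 probe. Leaving out an array gave 3 to 724, with 3 for each Capan-1 array and 100 without MIA PaCa-2 siRNA replicate 1. In Capan-1 the 1 gene called became 77, 4, 0, 5, 0, 0, 50, 11 and 281 in the same order, 12 with quantile normalization, and 0 to 157 when an array was left out. The 2 genes called for the difference between the lines became 49 with normexp, 8 with quantile normalization, 4 without scaling, 1 with spike-in scaling, 1 with outlier spots kept, 6 under the filter on all 8 arrays, 0 without a filter, 43 with the intensity trend and 1 to 311 without an array. Without scaling the median of all probes moved to -0.19 (MIA PaCa-2) and -0.16 (Capan-1), and with spike-in scaling to -0.11 and -0.25.

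Signs turned mostly for probes with small differences. An exception was the dimmer CCNE2 probe in MIA PaCa-2, at -0.48 as reported and 0.12 with normexp. CDK4 (0.047) and the brighter CCNE2 probe (0.023) in Capan-1 also turned with normexp. So did CCNB2 between the parental lines (-0.0082, and -0.027 with quantile normalization). Without scaling the results that turned were CCND1 in MIA PaCa-2 (-0.082), CDK6 in Capan-1 (-0.032) and the difference for CCND3 (-0.021). With spike-in scaling they were CDK6 in Capan-1 (-0.12), CCNB2 between the parental lines (-0.099), and the difference between the lines for CCNA2 (0.071), CCNB2 (0.020) and the CCNB1 probes (0.024 and 0.027). Leaving out an array gave ranges across 0 for CCND3 in MIA PaCa-2 (-0.19 to 0.073), CDK4 (-0.096 to 0.075) and the brighter probes of CCNB1 (-0.035 to 0.028) and CCNE2 (-0.062 to 0.0098) in Capan-1, CCNB2 between the parental lines (-0.041 to 0.13), and the differences for CCND3 (-0.093 to 0.17) and CCNA2 (-0.11 to 0.021).

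Replicate numbers gave no sign of pairing, since deviations of same-numbered siRNA and parental arrays correlated at 0.023 (MIA PaCa-2) and 0.038 (Capan-1). With the replicate number as a block, 19 genes were called in MIA PaCa-2, 0 in Capan-1, 14634 between the parental lines and 0 for the difference. CCNE1 in MIA PaCa-2 then had an adjusted p of 0.0656, so 0 members were called higher, and the block changed no other call of a member. With 2 arrays a group, the number of arrays limits the precision, and dim probes such as those of CCNE2 and CCND2 are read close to background.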
